A study of Mus musculus with 10 samples.

Results

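Neat1 and Malat1 are long noncoding RNAs that stay in the nucleus, and Sfpq, Nono, Pspc1, Tardbp, Hnrnpk and Rbm14 encode RNA-binding proteins found in the nuclear bodies that Neat1 builds. The members were chosen by gene symbol, and Neat1 was put among them because its level differed between the groups. They are 8 of the 49315 genes in the deposited count table, and all 8 passed the low-count filter that left 17080 genes for testing. RNA came from tissue that the labels call the dDG DGC layer, read here as dorsal dentate gyrus, granule cell layer, in the hippocampus. Of the 10 male C57 BL/6 mice, 5 belonged to a cocaine group and 5 to a saline group, and every library is named for drug self-administration. The sources used here do not give age, dose, schedule or the time of dissection, and each library is labelled as 1 numbered sample of its group.

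Neat1 is the scaffold of paraspeckles, granular bodies that form beside sites of transcription and hold back certain RNAs and proteins. One start site gives a short polyadenylated form and a long form, and only the long form builds the body. The proteins Sfpq and Nono bind along the long form and stabilise it, and Hnrnpk favours it by hindering cleavage at the poly(A) site of the short form. Malat1 lies beside Neat1 in the genome, collects in nuclear speckles, which store splicing factors, and is abundant in neurons. Both long RNAs end not in a poly(A) tail but in a genome-encoded triple helix, left when RNase P cuts off a small tRNA-like RNA. Poly(A) selection, used for these libraries per the labels, can therefore hold the forms to different degrees, and a count per gene does not separate them.

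Both genes lie on chromosome 19 (mm10, GENCODE M21), on the minus strand. Neat1 (ENSMUSG00000092274) runs from 5824708 to 5845478 and Malat1 (ENSMUSG00000092341) from 5795690 to 5802672, with 22035 bases between them. Both are annotated as long intergenic noncoding RNAs, and annotated exons cover each gene from end to end. The 3 sequences that follow show the polyadenylated end of the short form and the triple-helix ends of both long RNAs, and are written 5′ to 3′ as DNA. In the first, at chr19:5842307-5842386, capitals mark the AATAAA poly(A) signal 20 bases before the end of the annotated short transcript Neat1-202. In the second, at chr19:5824708-5824787, and the third, at chr19:5795940-5796039, capitals mark the stretches of 10 or more bases that both windows hold.
Neat1 short form end: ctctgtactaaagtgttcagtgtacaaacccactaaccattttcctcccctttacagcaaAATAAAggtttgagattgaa
Neat1 long form end: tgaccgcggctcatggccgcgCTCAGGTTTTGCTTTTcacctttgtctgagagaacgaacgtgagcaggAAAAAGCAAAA
Malat1 A tract: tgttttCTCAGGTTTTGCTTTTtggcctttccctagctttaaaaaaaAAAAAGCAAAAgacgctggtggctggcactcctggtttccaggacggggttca
The T-rich stretch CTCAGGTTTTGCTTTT and the A-rich stretch AAAAAGCAAAA belong to the parts known to form the triple helix, and the tRNA-like RNA follows the A run in the Malat1 window. On the transcribed strand, the T-rich stretch was found in the longest transcript of 2 of 55450 GENCODE genes, Neat1 and Malat1, and the A-rich stretch in 0.548% of them. In the Malat1 window the A run reaches 12 bases, a length found in 0.285% of consecutive 100-base windows of the longest transcripts. An AATAAA lies in the last 80 bases of 32.4% of the longest transcripts.

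One further sequence bears on Tardbp, whose protein TDP-43 binds UG repeats. It is the 80-base window of Neat1 with the most GTGTGT hits, so its count was selected to be high, and it lies at chr19:5826021-5826100, with runs of 3 or more GT in capitals.
Neat1 long form GT repeat: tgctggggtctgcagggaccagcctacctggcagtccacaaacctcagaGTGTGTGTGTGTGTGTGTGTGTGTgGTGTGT
It held 11 overlapping hits of GTGTGT on the transcribed strand, a number reached in 0.106% of the consecutive 80-base windows of all longest transcripts, while 3.02% of those windows held at least 1 hit. All 37 hits in Neat1 lay beyond the end of the short form, at base 3172 of 20771, and 0 lay before it. Such matches describe the letters and are not measured binding sites.

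Total counts ran from 34991548 to 46481533 per library. The layer's own markers were present in every library: the 8 granule cell markers summed to between 1103 and 1890 CPM (counts per 1e6 of the TMM-scaled library total) with cocaine and between 1382 and 1963 CPM with saline. Cocaine replicate 5 stood apart at −54.2 on a first principal component that held 24.6% of the variance; all others were at −27.9 to 25.2. The edgeR quasi-likelihood test called 0 genes higher and 0 lower at an adjusted p under 0.05, which is 0% of the genes tested. Without adjustment, a p under 0.05 was found for 8.91% of genes, of which 953 were higher (5.58% of those tested) and 568 lower (3.33%). DESeq2 called 15 higher and 1 lower, limma voom with sample weights 91 and 4, and edgeR without cocaine replicate 5 called 126 (0.729%) and 3 (0.0174%). In voom that library had the lowest weight, 0.191, the next lowest being 0.697 for cocaine replicate 2. The voom counts are therefore not separate from those without cocaine replicate 5. With any other single library left out, edgeR called 0 higher and 0 lower. Of the 7 members other than Neat1, 0 were called and 0 had an unadjusted p under 0.05; no p is given for Neat1, which was picked for its difference.

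Neat1 was at 158.7, 105.9, 134.4, 138.8 and 89.81 CPM in cocaine replicates 1 to 5. In saline replicates 1 to 5 it was at 59.18, 69.81, 88.84, 82.26 and 69.20 CPM. The groups did not overlap, but the lowest cocaine library, replicate 5, lay only just above the highest saline library, replicate 3. The cocaine mean was 125.5 ± 27.5 CPM against 73.9 ± 11.7 CPM for saline (SD, n = 5), and the fitted difference was 0.76 on the log2 scale (SE 0.15, 95% interval 0.44 to 1.09). Groups that did not overlap were found for 1.38% of all genes tested, with cocaine higher for 0.773% and lower for 0.609%. Since Neat1 was picked for this difference, nothing is read from that share. Each value rests on 2350 to 6370 reads, so the spread between libraries is wider than the counting error. Leaving out 1 library at a time moved the log2 fold change between 0.67, without cocaine replicate 1, and 0.86, without cocaine replicate 5.

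Malat1, the neighbour of Neat1, did not pass the test between the groups. It was at 317.8, 371.0, 318.7, 339.8 and 384.7 CPM in cocaine replicates 1 to 5. In saline replicates 1 to 5 it was at 210.4, 321.5, 329.6, 339.5 and 372.8 CPM. The groups overlapped widely, and saline replicate 1 was lower than every other library. The means were 346.4 ± 30.4 CPM and 314.8 ± 61.5 CPM (SD, n = 5), or 0.14 on the log2 scale (SE 0.13, edgeR adjusted p 0.761). The 95% interval, from −0.14 to 0.41, still holds a rise to 1.33-fold. Without saline replicate 1 the log2 fold change was 0.02.

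Library 5 of the cocaine group had the highest Malat1 and the lowest Neat1 of its group, and the balance of the RNAs is given here by library. For each 100 Malat1 counts there were 49.9, 28.5, 42.2, 40.9 and 23.3 Neat1 counts in cocaine replicates 1 to 5. In saline replicates 1 to 5 there were 28.1, 21.7, 27.0, 24.2 and 18.6. On this ratio the groups overlapped, with cocaine replicate 5 inside the saline range.

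**Figure D1:**
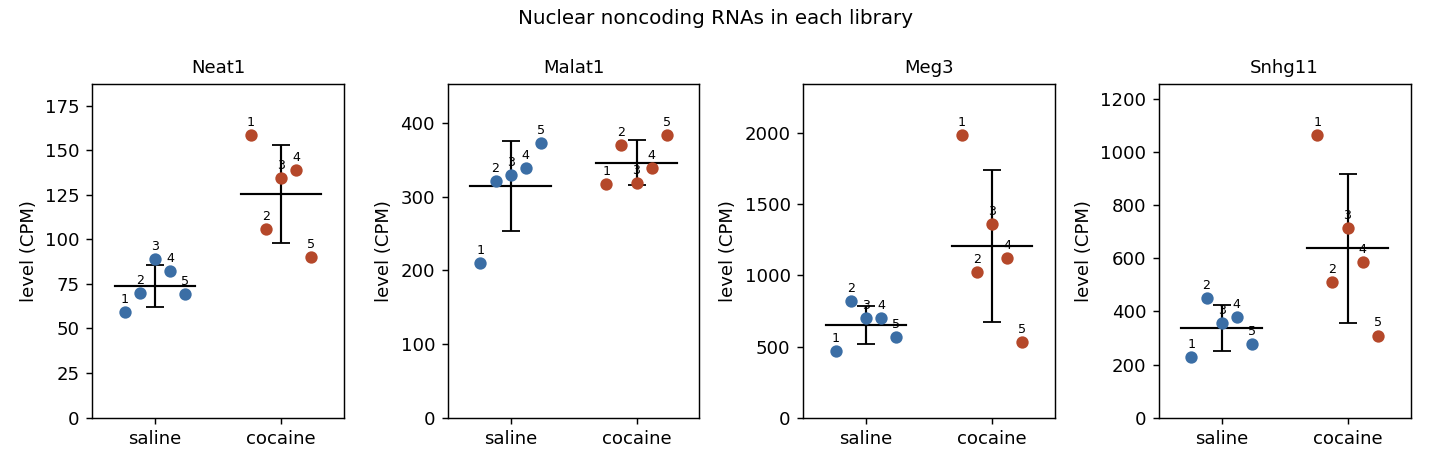
Levels in CPM (vertical axes, from 0) of Neat1, Malat1, Meg3 and Snhg11 in saline and cocaine libraries; each point is 1 library with its replicate number, and bars give the mean and SD (n = 5). All cocaine points of Neat1 lie above the saline points, Malat1 overlaps, and cocaine replicate 5 lies inside the saline range for Meg3 and Snhg11.

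Sfpq, Nono and Pspc1 form a family of paired RNA- and DNA-binding proteins at the core of the paraspeckle. Sfpq, on chromosome 4 from 127021324 to 127037013, is a splicing factor that the long form of Neat1 can draw away from gene promoters. Its level was 221.9, 258.9, 232.2, 222.0 and 186.2 CPM in cocaine replicates 1 to 5 and 253.1, 205.9, 193.3, 210.7 and 197.2 CPM in saline replicates 1 to 5. The groups overlapped, and cocaine replicate 5 was the lowest library of all. The log2 fold change was 0.08 (SE 0.10, 95% interval −0.13 to 0.29) with an edgeR adjusted p of 0.824.

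Nono, on chromosome X from 101429318 to 101448591, pairs with Sfpq and has roles in splicing and DNA repair. It was at 126.6 to 152.5 CPM in the cocaine libraries and 133.0 to 152.3 CPM in the saline libraries, nearly the same range. The log2 fold change was −0.03 (SE 0.07, 95% interval −0.18 to 0.12, edgeR adjusted p 0.916). Pspc1, on chromosome 14 from 56720710 to 56778316, is the member of the family first described in paraspeckles. It was at 50.1 to 59.0 CPM with cocaine and 49.4 to 61.1 CPM with saline, a log2 fold change of 0.02 (SE 0.08, 95% interval −0.14 to 0.19, edgeR adjusted p 0.951).

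Hnrnpk, on chromosome 13 from 58391142 to 58403343, had the smallest spread within groups of the members, with a mean of 344.4 CPM with cocaine, near that of Malat1, and 350.3 CPM with saline. It was at 325.4, 343.9, 329.4, 364.0 and 359.4 CPM in cocaine replicates 1 to 5. In saline replicates 1 to 5 it was at 340.1, 352.2, 333.0, 361.1 and 364.9 CPM. With a log2 fold change of −0.02 (SE 0.06, edgeR adjusted p 0.931), its 95% interval ran from a fold of 0.895 to 1.08. Rbm14, on chromosome 19 from 4800569 to 4811634, encodes a coactivator with a prion-like domain that paraspeckle assembly needs. It was the lowest in CPM, at 18.8 to 24.4 CPM with cocaine and 18.8 to 21.9 CPM with saline (log2 fold change 0.10, SE 0.09, edgeR adjusted p 0.765).

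Tardbp, on chromosome 4 from 148612382 to 148627019, encodes TDP-43, which binds Neat1 and whose loss from the nucleus marks motor neuron disease. It was at 209.6, 217.6, 201.5, 205.9 and 149.8 CPM in cocaine replicates 1 to 5. In saline replicates 1 to 5 it was at 195.0, 167.5, 185.6, 193.4 and 169.7 CPM. Thus 4 of the 5 cocaine libraries lay above every saline library and the fifth, replicate 5, lay below every one. The log2 fold change was 0.11 (SE 0.10, 95% interval −0.10 to 0.32) with an edgeR adjusted p of 0.745. Without cocaine replicate 5 it was 0.19 (SE 0.06) with an adjusted p of 0.181, so it did not pass there either.

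**Figure D2:**
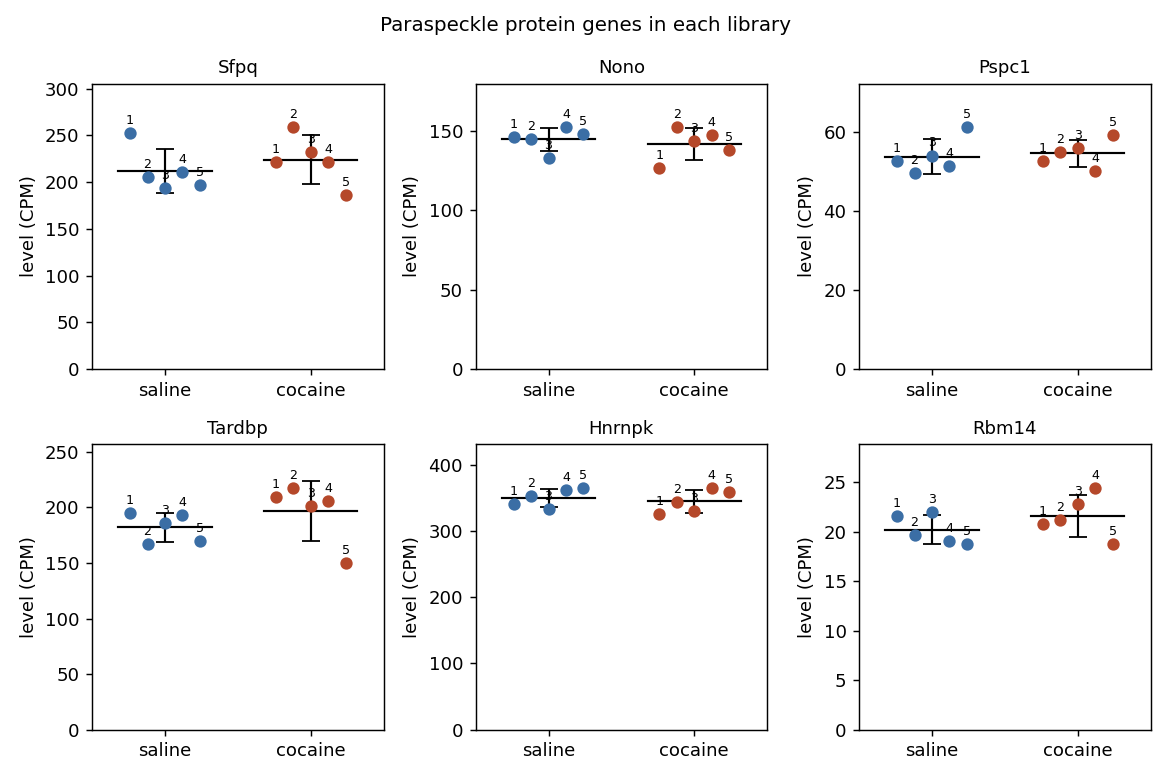
Levels in CPM (vertical axes, from 0) of the 6 protein-coding members in saline and cocaine libraries; each point is 1 library with its replicate number, and bars give the mean and SD (n = 5). The groups overlap in every panel, and cocaine replicate 5 is the lowest library for Sfpq (186.2 CPM) and Tardbp (149.8 CPM).

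Of the 6 protein genes, Sfpq, Pspc1, Tardbp and Rbm14 had a fold above 1, but with a GC and length correction only Tardbp did. Over all genes tested, 53.6% had a fold above 1 and 46.4% below, and the share above was 32.2% with that correction. It moved the median over all genes from 0.02 to −0.08 on the log2 scale. How much of that shift comes from GC, length or scaling was not tested. Sfpq, Pspc1 and Rbm14, at −0.0074, −0.013 and −0.030 with the correction, lay above that median. Nono at −0.14 and Hnrnpk at −0.10 lay below it. A count of 4 in 6 is near the background, and no protein gene passed the test. Levels can be compared between genes only per length, here as RPKM, the CPM per kilobase of annotated exon. Hnrnpk stood at 53.3 ± 2.67 RPKM (SD, n = 5) in cocaine and 54.2 ± 2.10 RPKM in saline libraries. Malat1 followed at 49.6 ± 4.36 and 45.1 ± 8.81 RPKM and Sfpq at 47.3 ± 5.50 and 44.7 ± 5.05 RPKM. These 3 overlapped between libraries, so their order does not exceed their spread. Nono, at 28.9 to 34.9 RPKM over all libraries, overlapped Malat1 only in saline replicate 1, where Malat1 was at 30.1 RPKM. Tardbp, at 19.2 to 27.9 RPKM, stood below every Nono value. Pspc1 lay lower, at 8.61 to 10.7 RPKM, and Rbm14 at 4.80 to 6.24 RPKM.

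Neat1 fits no single place in that order, because its length depends on the form. Spread over the 20771 bases of the long form it stood at 6.04 ± 1.32 RPKM with cocaine and 3.56 ± 0.564 RPKM with saline, and only cocaine libraries reached the range of Rbm14. If all reads came from the 3172 bases up to the end of Neat1-202, the same reads would give 39.6 ± 8.65 and 23.3 ± 3.69 RPKM (SD, n = 5). Which form the reads came from cannot be told from counts per gene.

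Variation within the groups, which the choice of Neat1 did not use, was larger for the RNAs than for the proteins when pooled over both groups. The SD of log2 CPM within groups was 0.284 for Neat1 and 0.244 for Malat1, where the median gene tested had 0.220. The protein genes had smaller values: 0.170 for Tardbp, 0.163 for Sfpq, 0.125 for Rbm14, 0.104 for Pspc1, 0.0898 for Nono and 0.0648 for Hnrnpk. For Malat1 the pooled value includes saline replicate 1, which was lower than every other library. Within the cocaine group alone the SD of CPM was 8.78% of the mean for Malat1. It was 13.7% for Tardbp, 11.6% for Sfpq and 9.84% for Rbm14, and 7.04%, 6.16% and 5.02% for Nono, Pspc1 and Hnrnpk. By the pooled SD of log2 CPM, all the protein genes varied less between libraries of a group than the median gene. Counted from the highest mean CPM, they ranked 445 to 7964 of 17080 genes. Genes of like level were not compared, so this is no trait of the protein genes as such.

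After each group's mean was subtracted, the members did not move as 1 block across the 10 libraries. Of 28 pairs, 14 had a positive Pearson r, with a median of −0.00255. The highest was Sfpq with Tardbp (r = 0.77, Spearman rho = 0.77) and the lowest Malat1 with Sfpq (r = −0.661, rho = −0.539). Cocaine replicate 5 was the lowest library for both Sfpq and Tardbp. Saline replicate 1 had the lowest Malat1 of all libraries and the highest Sfpq of its group. Neither r was computed without those libraries. Neat1 had r = 0.0669 and rho = −0.309 with Malat1. Without cocaine replicates 1 and 5, the libraries farthest from the median of Neat1, that r was 0.418. For Neat1 with Tardbp r was 0.529, but −0.0653 without those libraries, and with Sfpq it went from −0.0828 to −0.731. The values for Malat1, Tardbp and Sfpq therefore rest on those libraries. With Nono the r of Neat1 hardly moved, at −0.4 and −0.409. These are descriptions over 10 libraries that share their scaling, with no test.

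**Figure D3:**
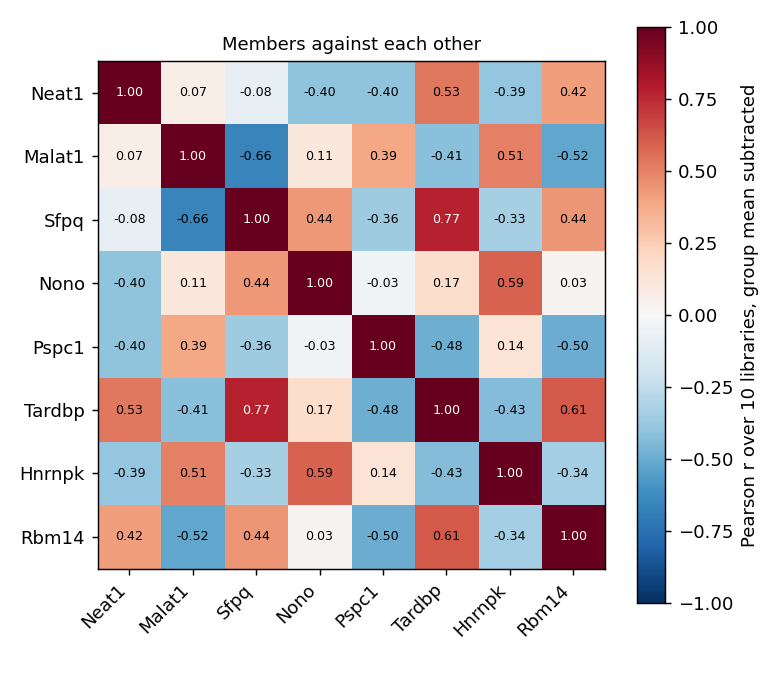
Pearson r between members over 10 libraries, computed on log2 CPM after subtraction of the group mean (colour scale from −1 to 1, value in each cell). Positive and negative pairs are equally many, with Sfpq and Tardbp at 0.77 and Malat1 and Sfpq at −0.66.

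The genes whose deviations were most like those of Neat1 over the 10 libraries were Letm2 (r = 0.948), Shroom1 (0.944), Hps5 (0.937), Tpra1 (0.933) and Slc45a1 (0.928). For Malat1 they were Yipf3 (r = 0.917), Parn (0.914), Abraxas1 (0.902), Isy1 (0.898) and Ccn4 (0.897). These are the highest values among 17080 genes, so they were selected to be high.

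Among other noncoding RNAs known for staying in the nucleus, most had higher means with cocaine, though none passed the edgeR test with all libraries. Of 15 on the list, 14 were matched and tested. Their median difference was 0.56 on the log2 scale, where all genes tested had 0.02, and 12 of the 14 lay above 0 (all genes 53.6%). An unadjusted p under 0.05 was found for 8, all higher with cocaine (all genes 5.58%), and the adjusted test called 0. Meg3, Rian and Mirg come from 1 imprinted locus and are not independent of each other. The list was drawn up with earlier results for some of its members known. Mir99ahg, a host RNA of microRNAs, was at 4.10 to 7.81 CPM with cocaine and 2.90 to 3.81 CPM with saline (log2 fold change 0.93, SE 0.18, edgeR adjusted p 0.504). Rmst, a neuronal RNA that binds Sox2, averaged 1.51 ± 0.713 CPM (SD, n = 5) in the cocaine libraries and 0.641 ± 0.220 CPM in the saline libraries, or 1.23 on the log2 scale (SE 0.36). In these 2 RNAs the groups did not overlap (all genes 0.773% with cocaine higher), though for Rmst the lowest cocaine library, at 0.925 CPM, all but met the highest saline library, at 0.924 CPM. Snhg11, a snoRNA host RNA of neurons, had a difference of 0.92 (SE 0.27). Meg3, an imprinted RNA, was at 1991, 1027, 1365, 1124 and 532.6 CPM in cocaine replicates 1 to 5 and 470.7 to 822.9 CPM in the saline libraries. Its log2 fold change was 0.89 (SE 0.27, edgeR adjusted p 0.504), with cocaine replicate 5 inside the saline range.

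Within the groups, Neat1 had r = 0.847 with Meg3 and 0.843 with Snhg11 over the 10 libraries, rho = 0.758 for both, and r = 0.709 with Mir99ahg. Its r was above 0 with 12 of the 14 RNAs, with a median of 0.675. The share over all genes was not computed. Among the other paraspeckle proteins described below r ran from −0.634 to 0.771, and among the speckle proteins from −0.78 to 0.745. A high r with Neat1 was therefore not particular to nuclear RNAs. Without cocaine replicates 1 and 5 the values were 0.637 for Meg3, 0.631 for Snhg11 and 0.771 for Mir99ahg, and the median was 0.405. Leaving out cocaine replicate 5 alone, edgeR called 6 of the 14 higher, namely Meg3, Mirg, Miat, Snhg11, Ftx and Mir99ahg, where 0.729% of all genes were called higher and 8.87% had an unadjusted p under 0.05 and were higher. Log2 fold changes of the 6 were then 0.78 to 1.09. Cocaine replicate 5 was the lowest library of its group for Meg3, Snhg11 and Mir99ahg. Leaving out the lowest cocaine library raises the cocaine mean, so these calls are no separate support. With the GC and length correction the median of the 14 was 0.47, where all genes had −0.08.

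Beyond the 6 members, 35 proteins reported in paraspeckles were tested. Higher means with cocaine were fitted for 20 and lower means for 15 (all genes 53.6% and 46.4%). The median difference was 0.04 on the log2 scale, where all genes had 0.02. With the GC and length correction these medians were −0.0010 and −0.08. The 3 with an unadjusted p under 0.05 were all higher (all genes 5.58%), and edgeR called 0. Akap8l, a nuclear matrix protein, was at 157.0, 147.1, 167.2, 143.6 and 82.3 CPM in cocaine replicates 1 to 5 and at 84.7 to 125.7 CPM in the saline libraries. Its log2 fold change was 0.47 (SE 0.17, edgeR adjusted p 0.511). Without cocaine replicate 5, the lowest library, it was 0.61 with an edgeR adjusted p of 0.0294 (all genes 0.729% called higher). Leaving out the lowest cocaine library raises the cocaine mean, so that p is no separate support. Dazap1 and Hnrnph3, both splicing regulators, had log2 fold changes of 0.22 (SE 0.08) and 0.21 (SE 0.09).

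Proteins of nuclear speckles and the splicing scaffold, the bodies where Malat1 resides, had a median difference of 0.16 on the log2 scale, or 0.07 with the GC and length correction, where all genes had 0.02 and −0.08. Of 20 tested, 18 lay above 0 (all genes 53.6%). Again 3, all higher, had an unadjusted p under 0.05 (all genes 5.58%) and edgeR called 0. Srsf11, Luc7l3 and Pnn, all tied to splicing, had log2 fold changes of 0.30 (SE 0.11), 0.28 (SE 0.11) and 0.32 (SE 0.14). Pnn was at 110.2 to 118.1 CPM in cocaine replicates 1 to 4, at 66.6 CPM in replicate 5 and at 73.4 to 92.5 CPM with saline. Without cocaine replicate 5 edgeR called Pnn, Srsf11 and Srrm2 higher (all genes 0.729%), with log2 fold changes of 0.45, 0.39 and 0.41. That library was the lowest of all for Pnn and Srsf11, so, as for Akap8l, these calls are no separate support.

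Factors that form or guard the ends of noncoding RNAs include RNase P subunits, the Integrator complex and the poly(A) machinery. Of 22 tested, 14 lay above 0 (all genes 53.6%). Their median of 0.05 on the log2 scale was −0.055 with the GC and length correction, where all genes had 0.02 and −0.08. Only 1 had an unadjusted p under 0.05, higher with cocaine (all genes 5.58%), and edgeR called 0. Both counts are near the background. Pabpn1, the nuclear poly(A)-binding protein that paces tail growth and the decay of nuclear RNAs, was that gene. Its level was 43.98, 43.05, 50.02, 42.14 and 24 CPM in cocaine replicates 1 to 5 and 20.37, 29.40, 24.45, 32.46 and 20.85 CPM in saline replicates 1 to 5. As with Akap8l and Pnn, 4 cocaine libraries lay above every saline library and replicate 5 did not. The log2 fold change was 0.67 (SE 0.18, edgeR adjusted p 0.504). Without cocaine replicate 5, the lowest of its group, it was 0.81 with an edgeR adjusted p of 0.024 (all genes 0.729% called higher). As for Akap8l, that p is no separate support. Ints9, of Integrator, and Rpp21, of RNase P, had log2 fold changes of 0.17 (SE 0.09) and 0.25 (SE 0.14).

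**Figure D4:**
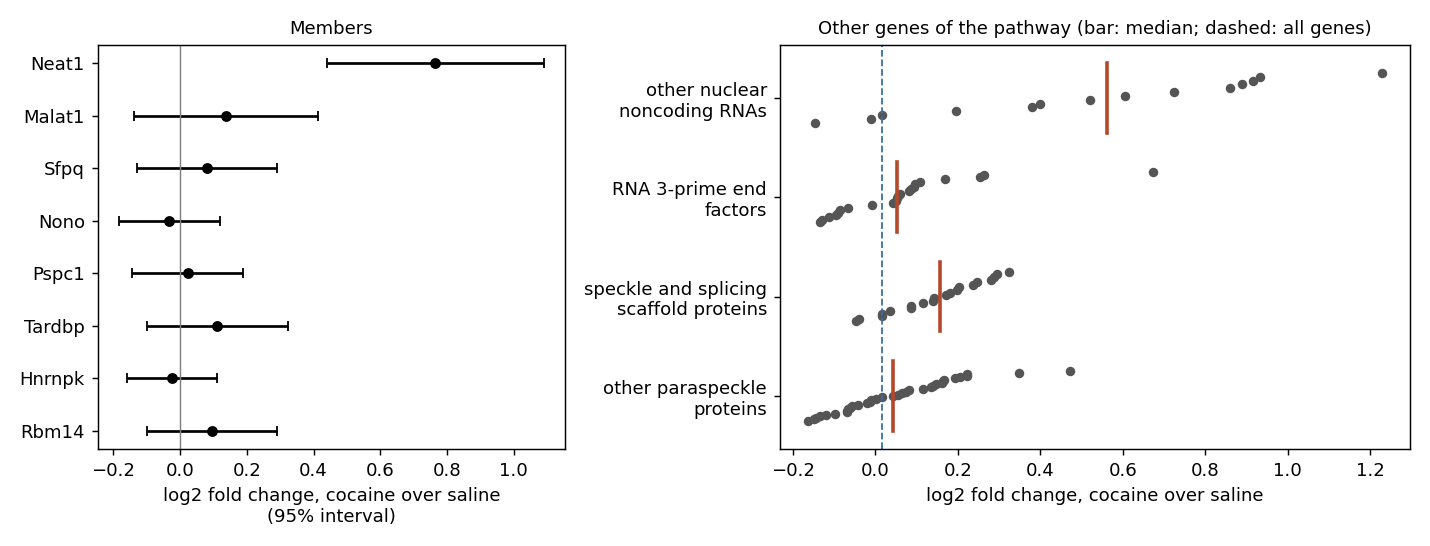
Left, log2 fold change of each member (points) with its 95% interval. Right, log2 fold change of each tested gene of the 4 other lists (points), with the list's median (bar) and the median of all genes tested (dashed line, 0.02); the interval of Neat1 lies above 0, those of the other 7 members hold 0, and the nuclear noncoding RNAs have the highest median, 0.56.

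The neighbourhood of Neat1 and Malat1 gives a view of the locus that did not enter the choice of Neat1. Within 200 kb on either side the annotation has 29 other genes in the table, of which 20 were tested. Of the 20, 17 lay above 0 on the log2 scale (all genes 53.6%), and their median was 0.19, where all genes had 0.02. No median with the GC and length correction is given for these genes. The 4 with an unadjusted p under 0.05, all higher (all genes 5.58%), were Frmd8, Rnaseh2c, Sipa1 and Cdc42ep2, and edgeR called 0. Frmd8, the next protein-coding gene upstream of Neat1 and on the same strand, encodes a protein that binds and stabilises iRhom proteins. It was at 29.17, 21.42, 20.54, 36.03 and 33.40 CPM in cocaine replicates 1 to 5 and at 18.86, 18.11, 23.24, 20.53 and 21.90 CPM in saline replicates 1 to 5. Its groups overlapped, and cocaine replicate 5 was among its highest libraries, unlike for Neat1 (log2 fold change 0.45, SE 0.15, edgeR adjusted p 0.504).

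Rnaseh2c, a subunit of RNase H2, and Sipa1, a Rap GTPase activator, had log2 fold changes of 0.32 (SE 0.12) and 0.21 (SE 0.09). Cdc42ep2, an effector of the GTPase Cdc42, had 0.45 (SE 0.19). Over the 10 libraries Neat1 and Frmd8 had r = 0.138 and rho = 0.200 after subtraction of group means. Without cocaine replicate 5, 17 of the 20 again lay above 0, where all genes had 48.4%, and edgeR called 0.

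**Figure D5:**
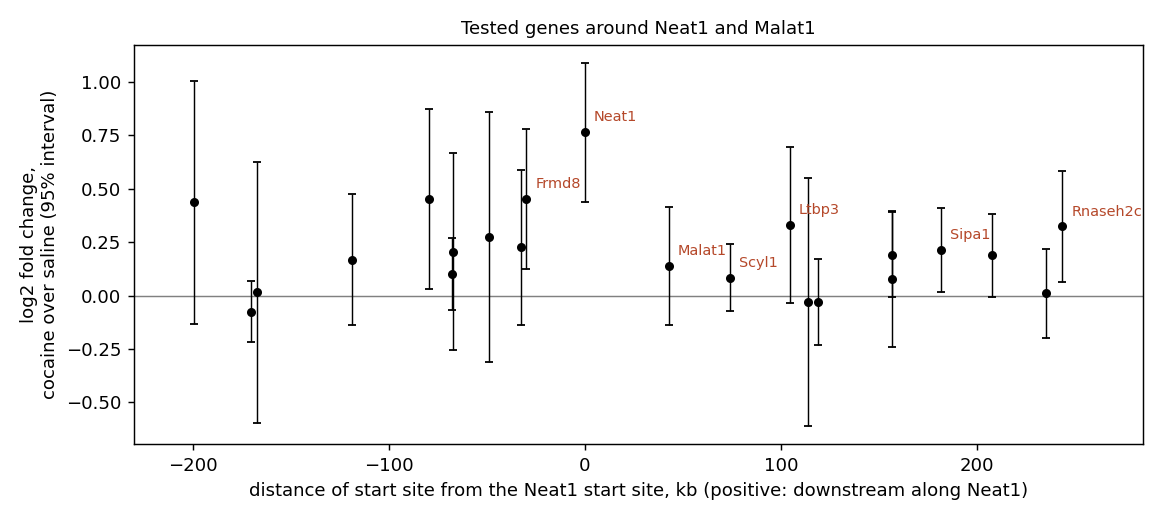
Log2 fold change with its 95% interval (vertical axis) of the tested genes around Neat1 and Malat1, by distance in kb of their start site from that of Neat1 (horizontal axis, positive values downstream). Neat1 lies highest at 0.76, Frmd8 upstream of it at 0.45 and Malat1 at 0.14, and the other neighbours range from −0.08 to 0.45.

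Cell makeup can bear on all of these levels, and in bulk tissue fewer cells of a type and less RNA per cell cannot be told apart. All 13 oligodendrocyte markers lay above 0 (all genes 53.6%), with a median of 0.65 on the log2 scale, the highest sum being in cocaine replicate 5. The sums were 6965, 3931, 5420, 8126 and 10490 CPM in cocaine replicates 1 to 5 and 3879, 4600, 5565, 3900 and 4857 CPM in saline replicates 1 to 5, so the groups overlapped. Within groups the r of Neat1 with the oligodendrocyte markers was 0.0937 over all 10 libraries. Cocaine replicate 5, with the highest marker sum, had the lowest Neat1 of its group, at 89.81 CPM. This r was not computed without that library, so no lack of a tie is read from it. All 9 choroid plexus markers also lay above 0, with sums of 295.5 to 4192 CPM with cocaine and 245.3 to 1754 CPM with saline. Without cocaine replicates 1 and 5 and saline replicate 3, the libraries richest in them, the log2 fold change of Neat1 was 0.85 and that of Malat1 0.14.

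Among the other marker lists, 1 of 8 granule cell, 5 of 10 CA pyramidal, 1 of 3 mossy cell and 3 of 8 interneuron markers had a fold change above 1 (all genes 53.6%). So did 1 of 8 astrocyte, 3 of 5 precursor, 5 of 9 microglia, 2 of 8 endothelial and 3 of 6 fibroblast markers. Interneuron markers had the lowest within-group r with Neat1, −0.674, and summed to 578.3 to 732.8 CPM with cocaine and 640.5 to 730.7 CPM with saline. No marker of any list was at 0 in a library. The part of any of these cell types, oligodendrocytes and choroid plexus included, in the level of Neat1 was not tested.

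Annotated overlaps limit some counts. On the same strand, 384 bases of Neat1 and 86 of Malat1 are shared with small RNAs annotated inside them. Rbm14 shares 727 of 3910 exon bases with the readthrough gene Gm21992 and Sfpq 216 of 4743 with Gm12940, so reads there may have gone to either gene or to none. On the opposite strand, Masp2 overlaps 1817 bases of Tardbp, Gm37376 453 bases of Malat1, Gm21844 349 bases of Rbm14 and Rmi1 330 bases of Hnrnpk, and the sources used here do not give the strand setting of the counting, so such reads cannot be told apart.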

How the data were processed

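Analysis started from the deposited raw counts, whole numbers per Ensembl gene, of 5 cocaine and 5 saline libraries, whose columns were matched to samples by library name; totals ran from 34991548 to 46481533. Per the submitters' processing notes, cutadapt, STAR, Cufflinks, HTSeq and mm10 were used; the sources used here do not give versions, annotation release or strand setting. Per the labels' protocols, libraries were directional and poly(A)-selected. GENCODE M21 (mm10) matched 49040 of 49315 identifiers and gave symbols, positions, lengths and the sequences printed. Of the 8 members, 7 have an entry in the RefSeq promoter table; Neat1 has none, and no promoter is printed.

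Counts were fitted over all genes with edgeR 4.0.16 in R 4.3.3: TMM factors, filterByExpr, two-sided quasi-likelihood F test of the groups, Benjamini-Hochberg over 17080 genes, threshold 0.05. The procedure was tested on simulated data. Intervals are 95% from the fit; CPM use TMM-scaled totals, and correlations use log2 CPM (prior count 2) minus group means. Alternatives used limma 3.58.1, DESeq2 1.42.0 and mgcv 1.9.3. The design text gives 5 mice per group; whether a library is 1 mouse is not stated outright, so p measures the spread between these libraries. Alternatives covered scaling, filter, tool, a replicate block, a GC and length correction and leaving out libraries.

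Named were the 8 members, Meg3, the 3 genes of smallest p in each list and in the 200 kb neighbourhood, and the 5 genes most like each RNA, leaving out symbols starting with Gm and a digit, ending in Rik or holding -ps; Cdc42ep2 and the further genes called without cocaine replicate 5 were named after their values were seen. Members, lists and tests were chosen with earlier results of these data known.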

Additional observations from a re-analysis of the deposited data

Results flagged for a closer look

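Each member was checked in each group of 5 for a library far from the others, 16 groups in all, and chance flags about 1 in 20 such groups. Sfpq in saline replicate 1, at 253.1 CPM, lay above the next saline library at 210.7 CPM by 0.71 of the group's range. Tardbp in cocaine replicate 5, at 149.8 CPM, lay below the next cocaine library at 201.5 CPM by 0.762 of the range. The limit for 5 libraries is 0.71.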

How the results depend on the processing

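The log2 fold change of Neat1 stayed between 0.67 and 0.86 in 19 alternatives, and was 0.75 with a replicate block. Malat1 stayed between 0.02 and 0.21, Tardbp between 0.07 and 0.20 and Hnrnpk between −0.10 and −0.0029, with 0 calls for the 7 tested members in any alternative. Sfpq turned to −0.0074 with a GC and length correction, alone or with the replicate block, Rbm14 to −0.030 and −0.031, and Pspc1 to −0.013 and −0.012. All of these values lay above the median of all genes, which was −0.08 with the correction alone and −0.09 with the block. Pspc1 was also −0.039 in voom and −8.9e-05 without the 3 libraries richest in choroid plexus markers, where Nono was 0.00029. With 1 library left out, Pspc1 ranged from −0.0085 to 0.072 and Nono from −0.062 to 0.0069. Genes called higher or lower were 15 and 1 in DESeq2 and 91 and 4 in voom, and 0 to 126 and 0 to 3 with 1 library left out, the highest counts being without cocaine replicate 5; the cause was not tested. With the replicate block 0 and 0 were called. Numbers 1 to 5 are not stated to pair the mice, deviations of same-numbered libraries correlated at −0.215 to 0.0291, and 0 of 10 libraries correlated best with their own number. The GC and length correction, whose use on lists was chosen after seeing the data, lowered the share of genes with a fold change above 1 from 53.57% to 32.24% and the median of all genes from 0.02 to −0.08. It moved the median of the 3′ end factors from 0.05 to −0.055, and to −0.056 with the block.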
